A study of Rattus norvegicus with 8 samples.

Results

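Genes of dorsal horn neuropeptides and their receptors were followed in the spinal cord of nerve-injured rats that received a histone deacetylase inhibitor (HDACI) or vehicle. The 10 genes were Tac1, Tac3, Tacr1, Tacr3, Grp, Grpr, Npy, Nts, Cck and Sst. They were chosen by name, and each is represented by 1 probe set of the array that carries its symbol alone, so all 10 were measured, among 14506 genes in all. The samples were 8 Affymetrix Rat Gene 1.0 ST arrays, 4 from HDACI and 4 from vehicle animals. HDACI animals were adult male Wistar rats given MS-275, an inhibitor of class I histone deacetylases, at 30 nmol per day through an intrathecal catheter and osmotic pump. Vehicle animals carried the same catheter and pump and received DMSO in saline. All animals of both groups underwent transection of the L5 spinal nerve, with treatment begun before the injury, and the ipsilateral dorsal part of the lumbar cord was taken on day 14. No uninjured animals are among these arrays, so every comparison here is between injured animals. The study describes the 4 arrays of a group as biological replicates.

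Values are deposited log2 signals after robust multi-array averaging (RMA), so that a difference of 1 is a doubling. The array medians lay between 7.95 and 7.98, and pairs of arrays correlated at 0.993 to 0.997 across all probe sets. Signals of different genes come from different probes and were not ranked against each other. The tissue is a mixture of cells, so fewer cells of a type and less RNA per cell cannot be told apart. Of 16 marker genes of dorsal horn neurons, 12 were measured, and 11 of these had a mean above the highest of 59 olfactory receptor probe sets (7.22), which served as a rough guide to background. All 10 neuropeptide and receptor genes lay above that level, the lowest, Grpr, at a mean of 8.14 over the 8 arrays.

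Neuropeptides are cut from longer precursors in the secretory pathway, stored in dense-core vesicles and released alongside fast transmitters. In the superficial dorsal horn they mark populations of interneurons: Tac1, Tac3, Grp, Nts, Cck and Sst are found mostly in excitatory cells, and Npy in inhibitory cells. Substance P and neurokinin B, the products of Tac1 and Tac3, act on the receptors encoded by Tacr1 and Tacr3, and gastrin-releasing peptide acts on Grpr, a receptor known from the spinal transmission of itch.

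The peptide genes had small positive differences and none passed the test after adjustment. In HDACI against vehicle arrays, 8 of 10 genes had a log2 fold change above 0 and 2 below 0 (Tacr1 and Cck), with a median of 0.19, whereas 42.1% of all genes lay above 0 and their median was -0.01. Of the 7 peptide precursors, 6 lay above 0, with a median of 0.19. Of the 3 receptors, 2 lay above 0, with a median of 0.03. By limma, 2 of the 10 genes, Grp and Grpr, had an unadjusted p under 0.05, both higher in HDACI, against 2.79% of all genes called higher and 7.75% called in either direction. None reached an unadjusted p under 0.01, where 1.46% of all genes did. None of the 10, and 0% of all genes, had an adjusted p under 0.05, and the lowest adjusted p among the 10 was 0.628. The HDACI and vehicle arrays overlapped for each of the 10 genes, while they did not overlap for 5.02% of all genes (all HDACI above for 1.42% and all HDACI below for 3.6%).

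**Figure D1:**
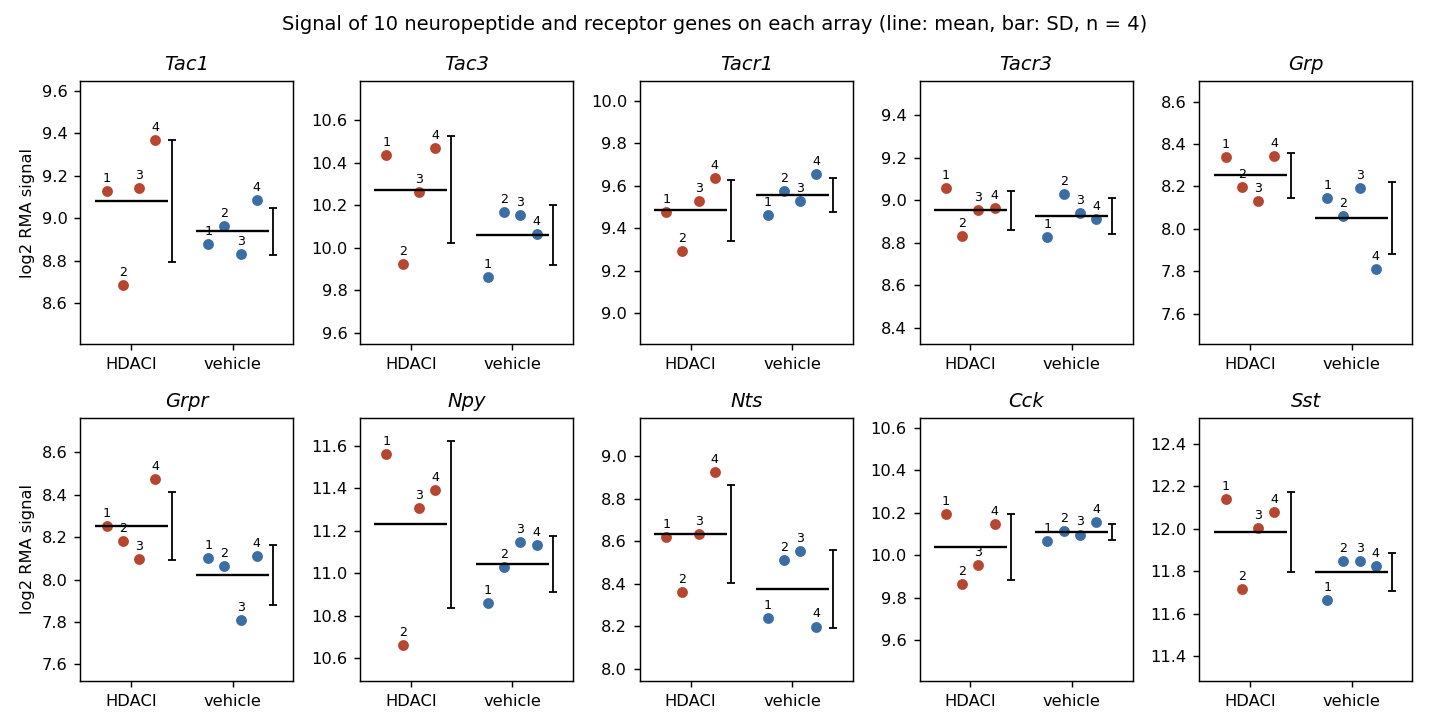
Log2 RMA signal (y axis) of the 10 neuropeptide and receptor genes, 1 panel per gene, with HDACI arrays left of vehicle arrays (4 points each, numbered by replicate), and the mean ± SD of each group. The groups overlap in every panel, and HDACI replicate 2 is the lowest HDACI array in 8 of the 10 panels.

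Tac1, which encodes the precursor of substance P and neurokinin A, had log2 signals of 9.13, 8.68, 9.14 and 9.37 in HDACI arrays 1 to 4, against 8.88, 8.96, 8.83 and 9.08 in vehicle arrays 1 to 4. In this gene 3 HDACI arrays stood above all vehicle arrays, and the other HDACI array, replicate 2, stood below all of them. The means were 9.08 ± 0.29 in HDACI and 8.94 ± 0.11 in vehicle (SD, n = 4 each). The difference of 0.14 ± 0.13 (SE) on the log2 scale corresponds to a fold of 1.10, with a 95% interval of 0.904 to 1.35, and was smaller than the spread between HDACI arrays (limma, adjusted p = 0.825; exact permutation p = 0.371).

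Tacr1 encodes the receptor for substance P, which in the dorsal horn is carried by projection neurons among other cells. Its log2 signals were 9.48, 9.29, 9.53 and 9.64 in HDACI and 9.46, 9.57, 9.53 and 9.65 in vehicle. Both groups covered nearly the same range apart from the low HDACI replicate 2. The log2 fold change was -0.07 ± 0.07 (SE; limma, adjusted p = 0.857; exact permutation p = 0.457), with an interval of -0.24 to 0.10. As a fold, the interval ran between 0.848 and 1.07.

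Tac3 encodes the precursor of neurokinin B. HDACI arrays had log2 signals of 10.44, 9.92, 10.26 and 10.47, against 9.86, 10.17, 10.16 and 10.06 in vehicle arrays. As for Tac1, 3 HDACI arrays were above every vehicle array and replicate 2 was among the vehicle values. The difference of means, 10.27 ± 0.25 in HDACI against 10.06 ± 0.14 in vehicle (SD, n = 4 each), was 0.21 ± 0.12 (SE), or 1.16-fold with an interval of 0.96 to 1.40 (limma, adjusted p = 0.703; exact permutation p = 0.2).

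For Tacr3, the receptor for neurokinin B, log2 signals were 9.06, 8.83, 8.95 and 8.96 in HDACI and 8.83, 9.03, 8.94 and 8.91 in vehicle. The arrays of both groups were interleaved. The log2 fold change was 0.03 ± 0.06 (SE), with an interval of -0.11 to 0.16 (limma, adjusted p = 0.946; exact permutation p = 0.657), and its sign turned when replicate 1 of HDACI (-0.0097) or replicate 1 of vehicle (-0.0080) was left out. The spread of Tacr3 was close to the middle of all genes (percentile 51.4 of the residual SD).

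Grp, the precursor of gastrin-releasing peptide, is expressed in a population of excitatory interneurons of the superficial laminae. It had log2 signals of 8.34, 8.20, 8.13 and 8.34 in HDACI and 8.14, 8.06, 8.19 and 7.81 in vehicle. Here 3 HDACI arrays lay above all vehicle arrays, whereas HDACI replicate 3 lay between vehicle values. The difference was 0.20 ± 0.09 (SE), or 1.15-fold, with an interval of 0.0046 to 0.40 on the log2 scale, and the adjusted p by limma was 0.640. By the exact permutation test over the 70 assignments of the arrays, whose smallest possible two-sided p is 0.0286, it was 0.114.

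Grpr, which encodes the receptor for gastrin-releasing peptide, had the smallest unadjusted p of the 10 genes. Its log2 signals were 8.25, 8.18, 8.10 and 8.48 in HDACI, against 8.10, 8.06, 7.81 and 8.11 in vehicle. For this receptor 3 HDACI arrays were above every vehicle array and HDACI replicate 3 lay at the upper vehicle values. The means were 8.25 ± 0.16 in HDACI and 8.02 ± 0.14 in vehicle (SD, n = 4 each), a difference of 0.23 ± 0.09 (SE) or 1.17-fold, with an interval of 1.02 to 1.36. The adjusted p by limma was 0.628, and the exact permutation p was 0.0857. Without HDACI replicate 1 or HDACI replicate 4, none of the 10 genes, Grp and Grpr included, kept an unadjusted limma p under 0.05. With the 8 arrays left out in turn, Grp lost it in 5 of the fits and Grpr in 3.

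Npy, the precursor of neuropeptide Y, had the widest spread of the 10 genes. HDACI arrays had log2 signals of 11.56, 10.66, 11.31 and 11.39, and vehicle arrays 10.86, 11.03, 11.15 and 11.13. HDACI replicate 2 was the lowest of all 8 arrays and the other HDACI arrays were the highest. The log2 fold change of 0.19 ± 0.17 (SE; limma, adjusted p = 0.824; exact permutation p = 0.4) was smaller than the SD of the HDACI arrays (0.39; vehicle 0.13). The residual SD of Npy exceeded that of 98.2% of all genes. Of the receptors for neuropeptide Y, Npy1r averaged 7.93 ± 0.13 in HDACI and 7.79 ± 0.14 in vehicle, a log2 fold change of 0.14 ± 0.08 (SE; limma, adjusted p = 0.716). Npy2r, a receptor found on presynaptic terminals, averaged 8.25 ± 0.19 in HDACI and 8.55 ± 0.25 in vehicle, a log2 fold change of -0.30 ± 0.13 (SE; limma, adjusted p = 0.640, unadjusted under 0.05). The unadjusted p of Npy2r was above 0.05 in 5 of the 8 fits that left out 1 array. Its 2 probe sets held identical values and count as 1 measurement.

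Nts encodes neurotensin. Its log2 signals were 8.62, 8.36, 8.64 and 8.93 in HDACI, against 8.24, 8.51, 8.56 and 8.20 in vehicle. Of the HDACI arrays, 3 stood above all vehicle arrays and HDACI replicate 2 fell within the vehicle range. This was the largest difference of the 10 genes, 0.26 ± 0.12 (SE), with an interval of 0.989 to 1.45 as a fold (limma, adjusted p = 0.650; exact permutation p = 0.143). The neurotensin receptors had log2 fold changes of -0.11 ± 0.06 (Ntsr2, adjusted p = 0.690) and -0.07 ± 0.06 (Ntsr1, adjusted p = 0.767; SE, limma).

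Cck encodes cholecystokinin. The log2 signals were 10.19, 9.86, 9.95 and 10.15 in HDACI and 10.07, 10.12, 10.10 and 10.16 in vehicle. The vehicle arrays lay close together (SD 0.04) and the HDACI arrays spread on both sides of them (SD 0.16). The log2 fold change was -0.07 ± 0.07 (SE; limma, adjusted p = 0.857; exact permutation p = 0.429). Cckbr, the main cholecystokinin receptor of the central nervous system, had log2 signals of 9.36, 9.13, 9.15 and 9.16 in HDACI and 9.80, 9.49, 9.53 and 9.22 in vehicle. Of the vehicle arrays, 3 were above all HDACI arrays, and vehicle replicate 4 was within their range. The log2 fold change was -0.31 ± 0.11 (SE; limma, adjusted p = 0.610, unadjusted under 0.05), and the unadjusted p stayed under 0.05 in all 8 fits that left out 1 array. Under the 11 other alternatives it was above 0.05 in 2.

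Sst encodes somatostatin, a peptide of excitatory dorsal horn interneurons. HDACI arrays had log2 signals of 12.14, 11.72, 12.01 and 12.08, against 11.67, 11.85, 11.85 and 11.82 in vehicle arrays. Again 3 HDACI arrays lay above all vehicle arrays, with HDACI replicate 2 near the lowest vehicle value. The difference was 0.19 ± 0.09 (SE), or 1.14-fold with an interval of 0.991 to 1.31 (limma, adjusted p = 0.652; exact permutation p = 0.114). Among the somatostatin receptors, Sstr2 had a log2 fold change of 0.06 ± 0.06 (SE; limma, adjusted p = 0.834), and those of Sstr1, Sstr3, Sstr4 and Sstr5 ranged from -0.09 (Sstr4) to 0.05 (Sstr1).

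**Figure D2:**
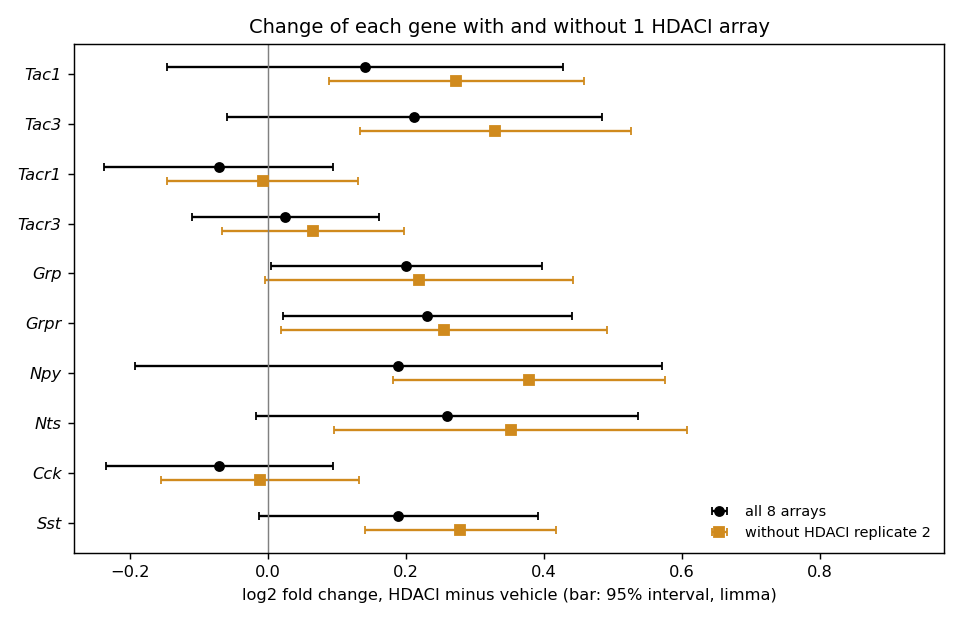
Log2 fold change, HDACI against vehicle, with its 95% interval from limma (x axis) for each of the 10 genes, with all 8 arrays and without HDACI replicate 2. With all arrays, only the intervals of Grp and Grpr lie above 0; without HDACI replicate 2, 6 intervals do.

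By Pearson r, 8 of the 10 genes moved together from array to array, Grp and Grpr being the exceptions. Part of the spread of these 8 came from 1 array, HDACI replicate 2, to an extent that differed between genes. Its difference from the HDACI mean was -0.57 for Npy, the largest of that gene. For Nts it was -0.28, against 0.29 for HDACI replicate 4, and for Tacr3 -0.12, against 0.11 for HDACI replicate 1. HDACI replicate 2 was the lowest HDACI array for the same 8 genes. It lay below the vehicle mean for 8 genes and below every vehicle array for 4 (Tac1, Tacr1, Npy and Cck). HDACI replicate 4 was above the mean of all arrays for 10 genes and HDACI replicate 1 for 9, while vehicle replicate 1 was above it for none. The SD was larger in HDACI than in vehicle for 9 of the 10 genes, against 43.6% of all genes, and for 4 of the 10 once HDACI replicate 2 was left out. The median residual SD of the 10 genes was 0.15 on the log2 scale, against 0.09 for all genes, and each of the 10 exceeded the median of all genes.

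Without HDACI replicate 2, limma gave an unadjusted p under 0.05 for 6 of the 10 genes (Tac1, Tac3, Grpr, Npy, Nts and Sst), all higher in HDACI, where 2.46% of all genes were called higher and 6.12% in either direction. The log2 fold changes were then 0.38 ± 0.09 for Npy, 0.33 ± 0.09 for Tac3, 0.28 ± 0.06 for Sst and 0.27 ± 0.08 for Tac1 (SE, 3 HDACI and 4 vehicle arrays; limma, adjusted p = 0.780 for each). These 4 genes passed an unadjusted p under 0.01, where 1.03% of all genes did. In 5 genes (Tac1, Tac3, Npy, Nts and Sst) every remaining HDACI array lay above every vehicle array, against 2.7% of all genes, and 7.92% in either direction. No gene of the 10 had an adjusted p under 0.05 in that fit either. The array left out was the lowest of its group for 8 of these genes and lay below the HDACI mean for all 10, Grp and Grpr included. All 10 log2 fold changes therefore had to rise, and the comparison without it describes the weight of 1 array. Tacr1 and Cck then had log2 fold changes of -0.0076 and -0.01. Other arrays carried weight in the opposite sense. Tac1 had a log2 fold change of 0.05 without HDACI replicate 4, Npy one of 0.08 without HDACI replicate 1, Nts one of 0.16 without HDACI replicate 4 and Grp one of 0.12 without vehicle replicate 4.

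The array-to-array pattern was shared by most pairs of genes. After the mean of each group was taken off, Pearson r over the 8 arrays was above 0 for 42 of 45 pairs and above 0.5 for 31, with a median of 0.61. It was highest for Tac3 with Sst (r = 0.98, Spearman rho = 0.95), Npy with Sst (r = 0.98, rho = 0.93) and Tac1 with its receptor gene Tacr1 (r = 0.96, rho = 0.95). Grp and Grpr stood apart from the other 8 genes and from each other. Their highest values with any of the 10 were 0.55 and 0.58, and r between Grp and Grpr was -0.004, although both had an unadjusted p under 0.05. All 28 pairs among the other 8 genes were above 0.5 by Pearson r. By Spearman rho, several of these pairs were under 0.5, down to 0.31 for Tacr1 with Tacr3 and 0.24 for Tac1 with Tacr3. These values share 8 arrays, 1 normalization and the low HDACI replicate 2, and are given as a description.

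Among all 14505 other genes, the pattern of Npy, the gene with the largest residual SD, was most like that of Tmx4, Asic2 and Dpp6 (each r = 0.99). Asic2 encodes an acid-sensing ion channel and Dpp6 an auxiliary subunit of potassium channels. The pattern of Grpr, the gene with the smallest p, was most like that of Mov10, Polk and Scfd1 (r = 0.97, 0.97 and 0.96). Each is the highest of 14505 values over 8 arrays.

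Some marker lists of other cells also stood out on HDACI replicate 2. Of the 6 markers of leptomeningeal fibroblasts, all 6 were measured, each with a mean above the highest olfactory receptor mean, and their mean log2 signal was 8.66, 10.05, 9.25 and 9.03 in HDACI, against 9.33, 9.63, 8.80 and 8.92 in vehicle. HDACI replicate 2 was thus the highest of all arrays on these genes, and vehicle replicate 2 the next. The mean of the 5 markers of endothelial and mural cells ranged from 9.89 to 10.15 in HDACI, with replicate 2 at the top, and from 9.94 to 9.97 in vehicle. The 12 measured markers of dorsal horn neurons averaged 9.72, 9.49, 9.62 and 9.73 in HDACI and 9.54, 9.53, 9.66 and 9.65 in vehicle, so HDACI replicate 2 was the lowest array there too. That array was also the lowest for general neuronal markers (11.76) and for peptide processing and granule genes (11.32). The same held for further receptors of the 10 genes' peptides (8.11) and receptors of other neuropeptides (8.53). It did not hold for motor neuron markers, primary sensory neuron markers, other neuropeptide genes or peptide degrading enzymes. Within groups, the r of the 10 genes with the dorsal horn marker mean ran between 0.20 for Grp and Grpr and 0.89 for Npy, and with the leptomeningeal mean between -0.90 for Npy and -0.04 for Grpr. The part of tissue makeup in the differences between HDACI and vehicle was not tested. Leaving out both HDACI replicate 2 and vehicle replicate 2 was a choice made after seeing the data. HDACI replicate 2 lay below the HDACI mean for all 10 genes, so each of their HDACI means had to rise without it. The counts without both arrays are therefore no test of tissue makeup. In that fit 6 of the 10 genes had an unadjusted limma p under 0.05, all higher in HDACI. Of all genes, 2.73% were called higher and 7.1% in either direction. The median log2 fold change of the 10 genes was 0.28. Of the 10 genes, 4 had an unadjusted p under 0.01, against 1.24% of all genes, and in 6 all remaining HDACI arrays were above all vehicle arrays, against 4.62% of all genes (13.1% in either direction).

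**Figure D3:**
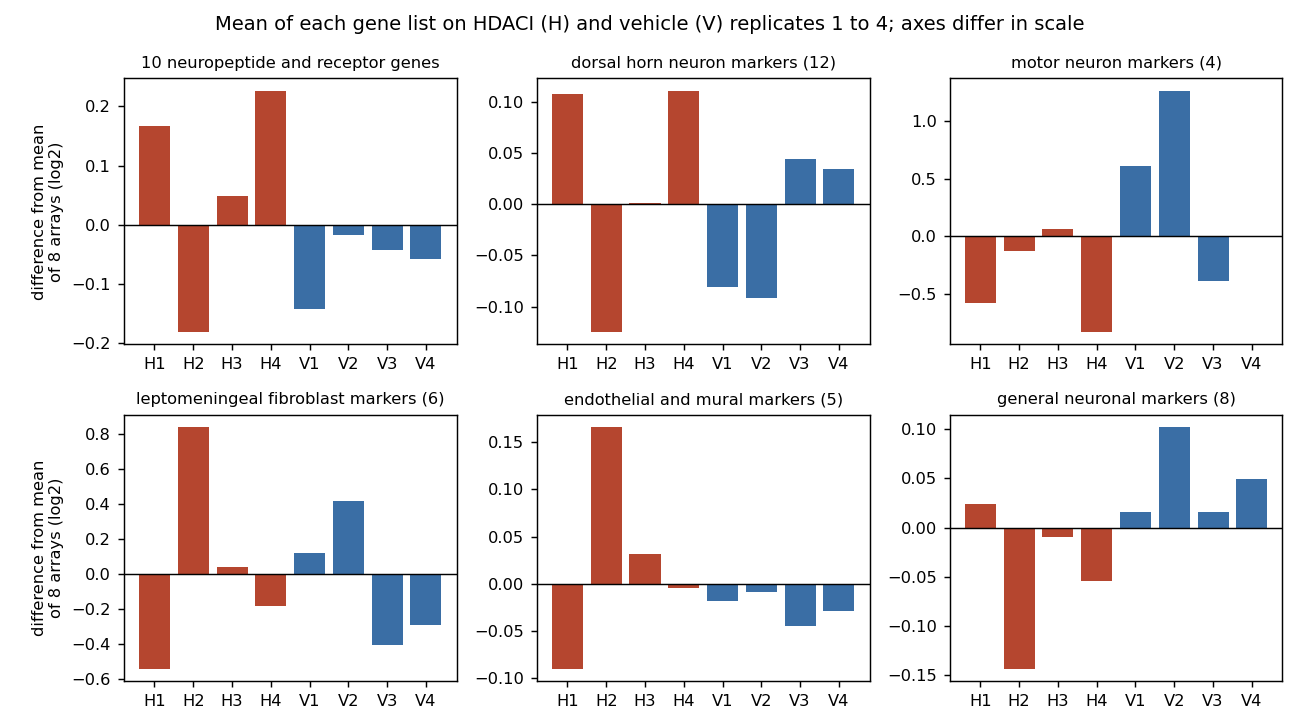
Mean log2 signal per array, as the difference from the mean of all 8 arrays (y axis), for the 10 neuropeptide and receptor genes and for marker lists of other cells, with HDACI arrays left of vehicle arrays and a scale of its own in each panel. HDACI replicate 2 is lowest for the 10 genes (-0.18) and the dorsal horn neuron markers (-0.12) and highest for the leptomeningeal markers (0.84).

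Of the dorsal horn neuron markers themselves, 8 of 12 had a log2 fold change above 0, with a median of 0.03, and none had an unadjusted p under 0.05 by limma. Without HDACI replicate 2, 10 of the 12 lay above 0, with a median of 0.09, again none with an unadjusted p under 0.05. Those with the smallest p were Calb1 (0.22 ± 0.12, adjusted p = 0.687) and Calb2 (0.12 ± 0.07, adjusted p = 0.703), which encode the calcium-binding proteins calbindin and calretinin, and the transcription factor gene Gbx1 (0.12 ± 0.07, adjusted p = 0.711; SE, limma). Of the 8 general neuronal markers, 0 lay above 0, and Elavl4, an RNA-binding protein of neurons, had a log2 fold change of -0.17 with all HDACI arrays below all vehicle arrays (limma, adjusted p = 0.610). Without HDACI replicate 2, 3 of the 8 lay above 0.

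Motor neuron markers had lower means in HDACI, with a wide spread between arrays. Of 6 such genes 4 were measured, and 0 of these lay above 0. Their mean was 7.90, 8.35, 8.54 and 7.64 in HDACI and 9.09, 9.75, 8.09 and 8.48 in vehicle, and HDACI replicate 2 lay between the other HDACI arrays. The choline transporter gene Slc5a7 had a log2 fold change of -0.75 ± 0.31 (SE; limma, adjusted p = 0.628, unadjusted under 0.05), and its unadjusted p was above 0.05 in 5 of the 8 fits that left out 1 array. The transcription factor gene Isl1 averaged 6.81 ± 0.19 in HDACI and 7.04 ± 0.14 in vehicle (SD, n = 4 each), both under the highest olfactory receptor mean of 7.22. Its unadjusted p by limma was under 0.05 with all arrays and above it in 6 of the 8 fits that left out 1 array. The vesicular acetylcholine transporter gene Slc18a3 had a log2 fold change of -1.07 ± 0.53 (SE; limma, adjusted p = 0.670). The markers of primary sensory neurons, 6 of 8 measured, had a mean signal of 6.78 to 6.90 in HDACI and 6.77 to 6.96 in vehicle, and only 3 of the 6 exceeded the highest olfactory receptor mean.

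The 4 promoters printed here are those among these genes that hold the core of the cyclic AMP response element, the site bound by CREB, a factor that recruits histone acetyltransferases and is known for driving the somatostatin gene. The RefSeq windows of build GRCr8, 250 bases before to 50 bases after the annotated start, were available for 7 of the 10 genes, and Tac3, Grpr and Cck had none in the table used. The motif TGACGTC, or GACGTCA as it reads from the opposite strand, occurred in 4 of the 7 windows and in 3.22% of 33469 windows of the same length. Each stretch is given 5′ to 3′ on the strand of the gene, with the core and 30 bases on each side, and the core is in capitals. All 4 genes lie on the plus strand, at chr4:116478518-116478584 for Tacr1, chr2:225940354-225940420 for Tacr3, chr18:61658537-61658603 for Grp and chr11:90461518-90461585 for Sst.
Tacr1: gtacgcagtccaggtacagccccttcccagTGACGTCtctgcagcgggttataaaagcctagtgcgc
Tacr3: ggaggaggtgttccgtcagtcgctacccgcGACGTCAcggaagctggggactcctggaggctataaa
Grp: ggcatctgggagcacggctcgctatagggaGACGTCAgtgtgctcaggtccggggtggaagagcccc
Sst: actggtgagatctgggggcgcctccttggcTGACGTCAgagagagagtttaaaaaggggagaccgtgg
In Sst the core occurs on both strands, overlapping, just after the annotated start; in the other 3 genes it lies before the start. A match of letters is a description and no measured site. The 4 genes with a match had log2 fold changes of -0.07 (Tacr1), 0.03 (Tacr3), 0.20 (Grp) and 0.19 (Sst), and the 3 genes whose windows held no match 0.14 (Tac1), 0.19 (Npy) and 0.26 (Nts), so both sets covered overlapping values.

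Other neuropeptide genes showed no common shift. Of 16, all measured, 8 lay above 0 with a median of -0.01, where 42.1% of all genes lay above 0. An unadjusted p under 0.05 was found for 2 of the 16, both higher in HDACI. Of all genes, 2.79% were called higher and 7.75% in either direction. Trh, the precursor of thyrotropin-releasing hormone, had log2 signals of 8.46, 8.22, 8.31 and 8.51 in HDACI and 8.17, 8.10, 8.18 and 8.22 in vehicle. Its log2 fold change was 0.21 ± 0.07 (SE; limma, adjusted p = 0.610), and the lowest HDACI array was level with the highest vehicle array. Npff, a peptide known for modulating opioid action, had 7.49, 7.48, 7.57 and 7.56 in HDACI and 7.41, 7.29, 7.48 and 7.46 in vehicle. The log2 fold change was 0.12 ± 0.05 (SE; limma, adjusted p = 0.640). All HDACI arrays were above all vehicle arrays, as for 1.42% of all genes, but the lowest HDACI and the highest vehicle array both round to 7.48.

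Calca, singled out after its values were seen, varied widely between arrays in both groups. It encodes calcitonin gene-related peptide, a peptide of primary afferents and motor neurons. Its log2 signals were 6.25, 9.24, 7.85 and 6.25 in HDACI and 10.14, 10.86, 6.39 and 8.80 in vehicle. HDACI replicates 1 and 4 and vehicle replicate 3 were under the highest olfactory receptor mean of 7.22. The difference of means was -1.65 ± 0.98 (SE; limma, adjusted p = 0.714), and it was -2.54 without vehicle replicate 3 and -1.04 without vehicle replicate 2, so that its size rests on single arrays. Vehicle replicates 1 and 2 were the highest arrays, and HDACI replicates 1 and 4 the lowest, as for the motor neuron markers. Calcb, a close copy of Calca, averaged 6.55 ± 0.15 in HDACI and 7.01 ± 0.51 in vehicle (SD, n = 4 each), both under 7.22, and no fold is given for it. The part of the motor neuron markers in the Calca values was not tested.

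Among 18 measured receptors of other neuropeptides, 7 lay above 0, with a median of -0.01, and 1 was higher and 1 lower at an unadjusted p under 0.05. Of all genes, 42.1% lay above 0, and 2.79% were called higher and 4.96% lower. Nmur2, a receptor for neuromedin U, had log2 signals of 7.31, 7.04, 7.27 and 7.65 in HDACI and 6.99, 6.73, 7.07 and 6.74 in vehicle. For Nmur2, 3 HDACI arrays exceeded all vehicle arrays and HDACI replicate 2 lay just below the highest of them. The log2 fold change was 0.43 ± 0.13 (SE; limma, adjusted p = 0.610), the largest in size of all receptors examined, at a signal close to that of the brightest olfactory receptor probe sets. The vehicle mean of Nmur2, 6.88, lay under the highest of their means, 7.22. With 1 array left out in turn, the unadjusted p of Nmur2 and Trh was under 0.05 in each of the 8 fits, and that of Npff and Trhr was above 0.05 in 5. Trhr, the receptor for thyrotropin-releasing hormone, ran the other way from its peptide gene, with 8.24, 7.95, 8.09 and 8.18 in HDACI, against 8.36, 8.36, 8.36 and 8.14 in vehicle, a log2 fold change of -0.19 ± 0.08 (SE; limma, adjusted p = 0.628). Galr2, a galanin receptor, had a log2 fold change of -0.13 ± 0.07 (SE; limma, adjusted p = 0.703).

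The further receptors of the 10 genes' own peptides were not higher as a set. Of 12 measured, 5 lay above 0 with a median of -0.02, and the 2 with an unadjusted p under 0.05, Cckbr and Npy2r, were both lower in HDACI, where 4.96% of all genes were called lower. The machinery that makes and stores peptides showed little difference: of 11 measured genes, which encode convertases, granins and other granule proteins, 7 lay above 0 with a median of 0.02 and none had an unadjusted p under 0.05. The smallest p values were those of Cadps, a priming factor of dense-core vesicles (-0.10 ± 0.05, adjusted p = 0.677), Pcsk1n, an inhibitor of prohormone convertase (-0.08 ± 0.05, adjusted p = 0.720), and Scg3, a granin (0.03 ± 0.05, adjusted p = 0.893; SE, limma). Of 5 enzymes that degrade neuropeptides, 3 lay above 0 with a median of 0.02, again none with an unadjusted p under 0.05. They included endothelin-converting enzyme Ece1 (0.11 ± 0.06, adjusted p = 0.694), neprilysin, encoded by Mme (-0.18 ± 0.13, adjusted p = 0.764), and neurolysin, encoded by Nln (0.05 ± 0.04, adjusted p = 0.815; SE, limma).

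**Figure D4:**
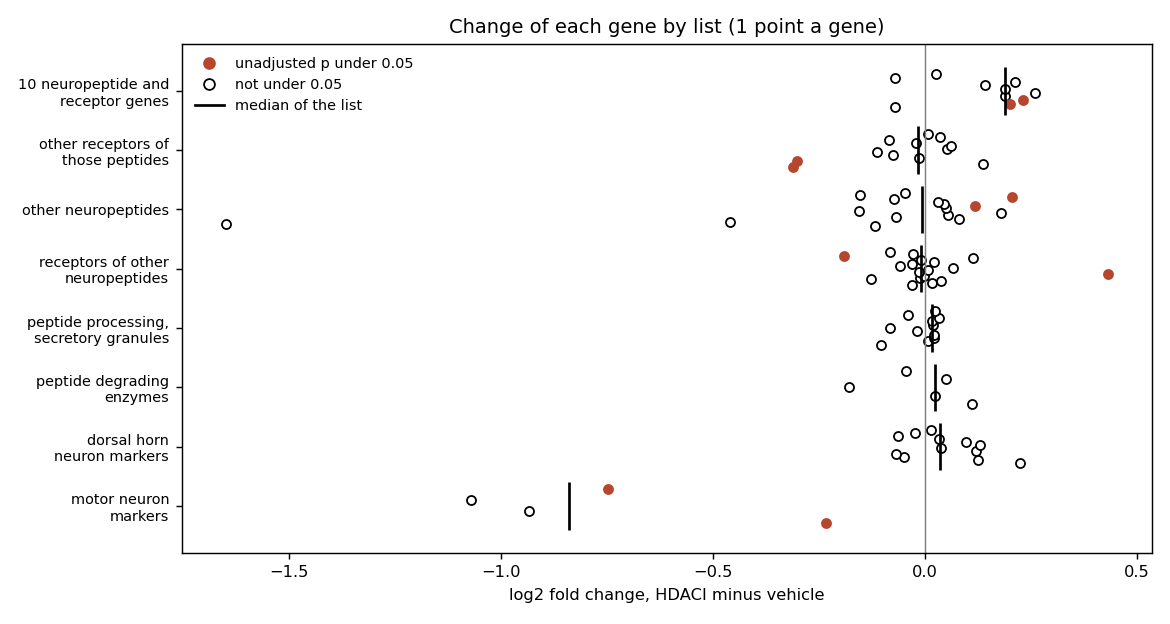
Log2 fold change, HDACI against vehicle (x axis), of every measured gene in the lists of neuropeptide genes, receptors, processing and degrading enzymes, dorsal horn neuron markers and motor neuron markers, 1 point per gene, with the median of each list. The median of the 10 neuropeptide and receptor genes is 0.19 and that of the motor neuron markers is -0.84. Those of the other lists lie between -0.02 and 0.03.

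The precision of 4 arrays a group limits these statements. The 95% intervals of 8 of the 10 genes held 0, and the distance between the estimate and its bounds was 0.14 for Tacr3 and 0.38 for Npy, the narrowest and the widest, on the log2 scale, against a median of 0.13 over all genes. The interval of no gene of the 10 reached past a fold of 1.49 (Npy) upwards or 0.848 (Tacr1) downwards.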

How the data were processed

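RNA of the dorsal ipsilateral lumbar cord was hybridised to Affymetrix Rat Gene 1.0 ST arrays, 4 per group. The deposited values are log2 signals of 29214 probe sets, made by the authors with the R package oligo and RMA, which corrects the background, quantile-normalizes the arrays and summarises each probe set, with Ensembl v70 annotation through biomaRt. The sources used here do not give the versions. Group and replicate number of each array were read from its title and source name. The treatment text of the labels names MS-275 for the vehicle arrays too, and this conflict could not be settled from the labels. The dorsal root ganglion arrays were not analysed here.

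Probe sets with 1 platform symbol (15310, of which 15279 were matched to a current symbol by Entrez number) were averaged per gene into 14506 genes. Another 323 probe sets with several symbols and 13581 with none listed were left out of the gene fit. A limma model (lmFit, then eBayes; limma 3.58.1, R 4.3.3) compared HDACI with vehicle, two-sided, with no filter and Benjamini-Hochberg adjustment over all genes, plus an exact permutation test over arrays. The p values rest on 6 residual degrees of freedom, and the number of arrays limits the precision. The fit was tested on simulated data.

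The 10 genes and all lists were chosen with earlier results of these data known. All 10 genes are named, along with the 3 genes of the smallest unadjusted p in each list of neuropeptide, receptor, processing, degrading, dorsal horn or motor neuron genes, the receptors of the peptides, and the 3 genes most alike in pattern to the gene of the smallest p and that of the largest residual SD. Calca and Elavl4 were named after their values were seen. Marker lists of astrocytes (7 measured, median log2 fold change 0.05), oligodendrocytes (4, 0.01), microglia (6, 0.10) and Schwann cells (1, -0.12) held no gene with an unadjusted p under 0.05. The alternatives covered variance moderation, low-signal filters, normalization, the choice of probe set, array weights, a replicate block and leaving out arrays.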

Additional observations from a re-analysis of the deposited data

Results flagged for a closer look

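In 2 of the 20 groups of 4 arrays, 1 array stood apart from the other 3 by Dixon's criterion, which chance meets in about 1 of 20 groups. For Grpr, vehicle replicate 3 was low at a log2 signal of 7.81, with the nearest vehicle array at 8.06. Without that array, the log2 fold change of Grpr was 0.16 (limma, adjusted p = 0.801), with an unadjusted p above 0.05. For Sst, vehicle replicate 1 was low at 11.67, with the nearest vehicle array at 11.82.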

How the results depend on the processing

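The 10 genes gave 187 log2 fold changes under 19 alternatives, and 185 kept the direction. The other 2 were those of Tacr3, -0.0097 without HDACI replicate 1 and -0.0080 without vehicle replicate 1, where its highest value was 0.10 without both HDACI replicate 2 and vehicle replicate 2. The lowest adjusted p of any of the 10 genes under any alternative was 0.454. The count of the 10 genes with an unadjusted p under 0.05 was 2 with all arrays. It was 0 without moderation of the variances, 0 with genes at or above the median signal (where Grp, Grpr and Nts drop out), 1 with arrays centred on their medians, 1 with all probe sets fitted and 4 with array quality weights, which ran between 0.594 and 1.61. With arrays left out in turn it ranged between 0 (without HDACI replicate 1 or 4) and 6 (without HDACI replicate 2), and the count at p under 0.01 between 0 and 4. Without both HDACI replicate 2 and vehicle replicate 2, a choice made after seeing the data, these counts were 6 and 4. Of all genes, 7.75% had an unadjusted p under 0.05 with all arrays, 6.12% without HDACI replicate 2 and 7.1% without both. At p under 0.01 the shares were 1.46%, 1.03% and 1.24%. The count of the 10 genes whose groups do not overlap ranged between 0 and 5 with arrays left out in turn and was 6 without both. Groups did not overlap for 5.02% of all genes with all arrays, 7.92% without HDACI replicate 2 and 13.1% without both. Over all genes, 1124 had an unadjusted p under 0.05, against 1958 (841 higher and 1117 lower) of 29214 probe sets. With arrays left out in turn, the count over all genes ran between 775 and 1245. With genes at or above the median signal 232 were called higher, against 404 of 14506 in the main fit. Fewer genes were tested with that filter, so the 2 counts cannot be set side by side. Whether the replicate numbers pair the arrays is not known. Same-numbered arrays deviated together in 1 of 4 pairs (r between -0.27 and 0.36), which is too few to settle it. With the replicate block, 1 of the 10 genes, Grpr, had an unadjusted p under 0.05, which was also under 0.01 (count 1), and 951 of all genes did. The cause of these shifts was not tested. Signals close to those of olfactory receptor probe sets, as for Nmur2, limit what a difference shows.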
